A study of Mus musculus with 16 samples.

Results

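CD4 T cells that carried the IL-4 reporter were compared with CD4 T cells of the same lymph nodes that did not. IL-4eGFP+ and IL-4eGFP- CD4+ cells were sorted from the mediastinal lymph nodes (medLN), which drain the lung, and the mesenteric lymph nodes (MLN), which drain the gut, of 2 mice. Members were the barcodes of the medLN and MLN sequencing run with more than 500 UMIs, more than 500 genes and less than 7% mitochondrial UMIs, in which 1 of 4 antibody hashtags held at least 80% of the hashtag UMIs and at least 10 of them. Of 19683 barcodes in the run 19411 passed the cell filters and 17104 were assigned to a hashtag, 8172 of them IL-4eGFP+ and 8932 IL-4eGFP-, among 26002 cells in the whole series. Counts were summed per hashtag and gate into 8 sums, each of 1 node of 1 mouse in 1 gate, of 2004 to 2087 IL-4eGFP+ and 2200 to 2263 IL-4eGFP- cells.

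All mice were female 4get/C57BL/6 mice, 10 weeks old, infected subcutaneously with 500 third-stage larvae of Nippostrongylus brasiliensis and killed on day 10. An uninfected group was not analysed here, so both gates come from infected mice. In 4get mice an internal ribosome entry site and eGFP follow the coding part of the Il4 gene, so the reporter marks cells in which the locus has been opened for transcription, including cells that are not secreting IL-4 at that moment, and it is also carried by some innate-like T cells. The mice drank water with antibiotics for the first 5 days. Each gate was 1 library made from all 4 hashtagged samples, so that gate and library cannot be told apart, and the 2 nodes of a mouse are not independent animals.

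CD4 T cells leave the naive state after antigen contact in the draining node. T helper 2 (Th2) cells, the main answer to parasitic worms, are governed by the transcription factor GATA3 and make IL-4, IL-5 and IL-13, which raise IgE, eosinophils and mucus. Follicular helper (Tfh) cells are governed by BCL6, enter B cell follicles through CXCR5 and in worm infection are a major source of IL-4 in the node, while regulatory T cells are governed by FOXP3 and restrain the others. Naive cells enter lymph nodes with the help of the chemokine receptor CCR7 and lose it on activation.

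Mouse and node were read from the antibody-linked oligos below, shown because they define the replicates. Each tag is printed whole, in lower case, and none of its bases is marked.
medLN, mouse 1: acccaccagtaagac
medLN, mouse 2: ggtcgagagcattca
MLN, mouse 1: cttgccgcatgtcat
MLN, mouse 2: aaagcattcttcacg
The median assigned cell held 986 to 2508 UMIs of its own tag. Each tag had a median of 5 to 14 UMIs in the cells assigned to another tag. The sums held 8023403 to 10650712 UMIs, and median UMIs per cell were 3347.5 in IL-4eGFP+ and 3317.5 in IL-4eGFP- cells, with 1523 and 1375 genes. In total the 8172 IL-4eGFP+ cells held 39428663 UMIs and the 8932 IL-4eGFP- cells 32209314. The mean per cell was thus higher in IL-4eGFP+ cells, although the medians were close. The libraries shared 155 barcodes, 115 of them among assigned cells. A UMI of Cd3d, Cd3e or Cd3g was present in 99% to 99.3% of IL-4eGFP+ and 99.2% to 99.3% of IL-4eGFP- cells, so both gates held T cells.

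The gates were checked first with Il4 itself, the gene behind the reporter on which cells were sorted, so that its difference is given as a description and no p is read from it. Levels are CPM, UMI counts of a gene divided by the total of the sum and brought to 1 common library size, after scaling by edgeR's TMM factors, in the order mouse 1 and mouse 2. Il4 was at 144 and 173 CPM in medLN and 158 and 171 CPM in MLN in the IL-4eGFP+ sums and at 0.263 and 0.392 CPM in medLN and 0 and 0 CPM in MLN in the IL-4eGFP- sums. At least 1 Il4 UMI was found in 36.1% to 42.6% of IL-4eGFP+ cells and 0% to 0.135% of IL-4eGFP- cells, that is in 3149 of 8172 and 5 of 8932 cells. After each cell was thinned to 1500 UMIs the share in IL-4eGFP+ cells was 18% to 20.3%. The labels of the gates thus held in all 4 pairs, and most IL-4eGFP+ cells had no Il4 UMI at this depth. For scale, Cd79a, a B cell gene that CD4 T cells should lack, had a UMI in 0.479% to 1.09% of IL-4eGFP+ and 0.318% to 0.578% of IL-4eGFP- cells at the same median depths.

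The sums were compared with the hashtag as a replicate block in edgeR's quasi-likelihood test, adjusted over all 11045 genes tested. In this comparison 7035 genes passed an adjusted p of 0.05, which is 63.7% of those tested, 3585 (32.5%) higher and 3450 (31.2%) lower in IL-4eGFP+ cells. A call alone thus says little about a gene, and sizes and levels are given throughout. Counts of called members in the gene lists below are to be read against these shares. Of the genes called, 1103 (9.99% of those tested) were at least 2-fold higher and 642 (5.81%) at least 2-fold lower. The 4 IL-4eGFP+ and 4 IL-4eGFP- values did not overlap for 6249 genes, 56.6% of those tested. The common biological coefficient of variation between sums was 0.0534, and the median log2 fold change over all genes was -0.01. Since 2 libraries and 2 mice stand behind the 8 sums, these p-values measure the spread between hashtag pairs only. A sum does not separate more cells of a kind from more RNA per cell, for which shares of cells are given beside it.

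**Figure D1:**
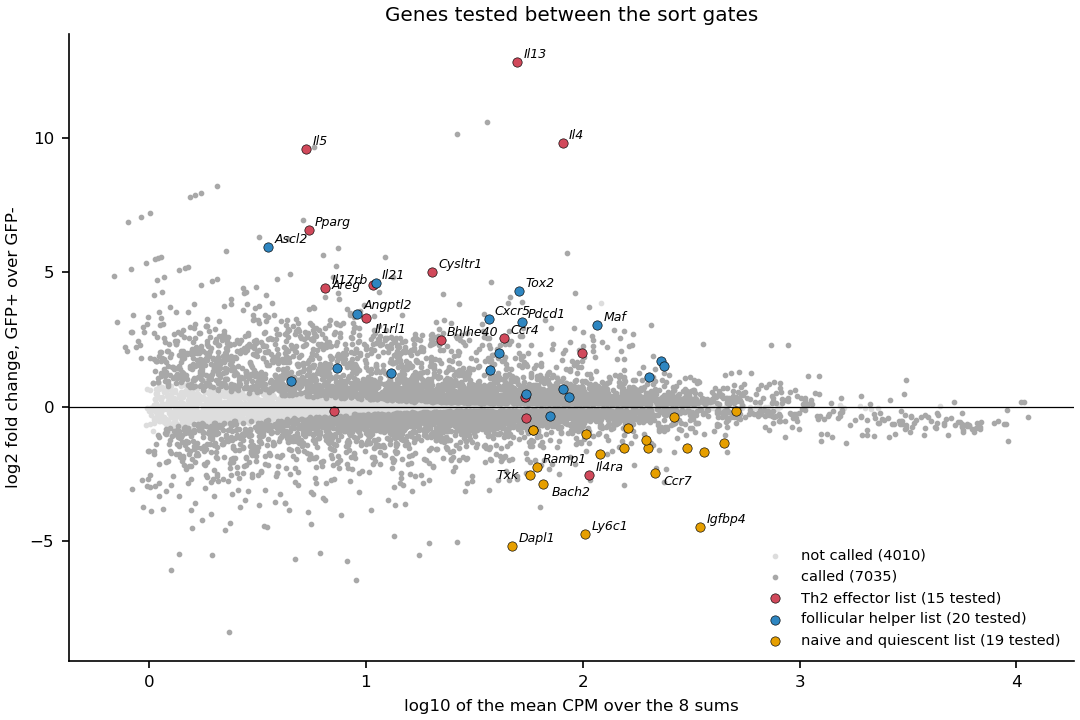
Log10 of the mean CPM over the 8 sums (horizontal axis) against the log2 fold change of IL-4eGFP+ over IL-4eGFP- (vertical axis) for the 11045 genes tested, each point 1 gene, darker grey if called, with the Th2 (15 tested), follicular helper (20) and naive (19) lists in color. Above 0 lie 12 of the 15 Th2 and 18 of the 20 follicular helper genes, and all naive genes lie below it, with Il13 at the top and Ly6c1 and Igfbp4 among the lowest.

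Among genes that averaged 50 CPM or more over the 8 sums, the 12 with the largest log2 fold changes upward were Il13, Il4, whose place follows from the sort, Lgals7 (5.72), Tox2 (4.31), Plac8 (4.24), Asb2 (3.88), Anxa2 (3.70), Epas1 (3.22), Pdcd1 (3.16), S100a6 (3.06), Maf (3.03) and Bcl2a1d (2.95). Lgals7, which encodes a galectin, a sugar-binding protein known mainly from stratified epithelium, was at 147 and 145 CPM in medLN and 168 and 205 CPM in MLN in IL-4eGFP+ and at 1.32 and 3.14 CPM in medLN and 6.13 and 1.93 CPM in MLN in IL-4eGFP- sums (log2 fold change 5.72 ± 0.19 (SE), adjusted p = 4.87e-09). Its transcripts were found in 13.1% to 17.4% of IL-4eGFP+ and 0.356% to 1.06% of IL-4eGFP- cells, with a mean of 5.89 UMIs in a positive IL-4eGFP+ cell. Lgals7 was thus high in every IL-4eGFP+ sum while most cells of that gate had no UMI of it at this depth. Asb2, a substrate-recognition subunit of a ubiquitin ligase, was at 54.5 and 81 CPM in medLN and 125 and 132 CPM in MLN against 5.0 and 5.36 CPM in medLN and 6.79 and 9.22 CPM in MLN (log2 fold change 3.88 ± 0.09 (SE), adjusted p = 8.14e-10). Epas1, the hypoxia-inducible factor HIF-2α, was at 91.3 and 119 CPM in medLN and 123 and 149 CPM in MLN against 10.1 and 14.1 CPM in medLN and 13.3 and 13.8 CPM in MLN (log2 fold change 3.22 ± 0.07 (SE), adjusted p = 5.54e-10). For Asb2 the MLN sums were above both medLN sums within the IL-4eGFP+ gate, and for Epas1 the lowest IL-4eGFP+ sum was still above the highest IL-4eGFP- sum.

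The 12 largest changes downward at the same level were Ly6c1 (-4.72), Igfbp4 (-4.46), Tgtp1 (-3.70), Bcl2 (-2.90), Bach2 (-2.86), Gm2682 (-2.77), Pdlim4 (-2.73), Il4ra (-2.54), Txk (-2.54), Tsc22d3 (-2.51), Scml4 (-2.50) and Als2cl (-2.46). Tgtp1, an interferon-inducible GTPase that has a near-identical copy and whose reads may be split between the copies, was at 8.34 and 6.1 CPM in medLN and 11.4 and 10.3 CPM in MLN in IL-4eGFP+ sums and at 111 and 102 CPM in medLN and 99.6 and 159 CPM in MLN in IL-4eGFP- sums. Tsc22d3, the glucocorticoid-induced leucine zipper, was at 22.6 and 24.1 CPM in medLN and 20.3 and 25.3 CPM in MLN against 126 and 133 CPM in medLN and 120.4 and 148 CPM in MLN. Txk, a TEC-family kinase of T cells, was at 15.6 and 17.4 CPM in medLN and 14.3 and 19.6 CPM in MLN against 92.2 and 95.1 CPM in medLN and 98.9 and 103 CPM in MLN. For all 12 genes each of the 4 hashtag pairs had the lower value in the IL-4eGFP+ sum, which the choice of these genes required.

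The type 2 cytokine genes Il4, Il13 and Il5 are neighbours on chromosome 11 and share regulatory elements, with Il13 12.7 kb and Il5 102 kb from Il4. The 250 bases before the RefSeq start of each are shown because Il4 lies behind the reporter and its neighbours Il13 and Il5 had UMIs in the IL-4eGFP+ gate only, written in the direction of transcription (build GRCm38). Capitals mark GATA, the core of the GATA3 motif, and GGAAA, the core bound by NFAT factors, on either strand.
Il4, chr11:53618666-53618915, minus strand: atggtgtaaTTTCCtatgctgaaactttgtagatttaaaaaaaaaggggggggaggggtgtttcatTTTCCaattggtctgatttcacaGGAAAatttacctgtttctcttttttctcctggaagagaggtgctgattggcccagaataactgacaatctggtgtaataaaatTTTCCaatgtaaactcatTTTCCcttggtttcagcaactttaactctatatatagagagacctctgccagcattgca
Il13, chr11:53634703-53634952, minus strand: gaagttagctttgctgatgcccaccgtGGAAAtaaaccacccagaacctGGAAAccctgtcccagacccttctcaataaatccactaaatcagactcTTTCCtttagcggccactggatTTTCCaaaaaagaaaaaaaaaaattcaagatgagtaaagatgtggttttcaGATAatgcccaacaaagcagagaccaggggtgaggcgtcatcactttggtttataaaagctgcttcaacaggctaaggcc
Il5, chr11:53720544-53720793, plus strand: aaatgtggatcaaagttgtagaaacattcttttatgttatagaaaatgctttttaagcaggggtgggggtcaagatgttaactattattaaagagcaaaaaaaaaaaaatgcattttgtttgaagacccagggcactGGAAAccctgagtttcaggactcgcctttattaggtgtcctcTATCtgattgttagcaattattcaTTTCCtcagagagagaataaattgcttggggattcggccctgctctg
These windows held 0, 1 and 1 matches of GATA and 5, 4 and 2 matches of GGAAA. GATA was found in 53.6% and GGAAA in 55.6% of 32851 RefSeq promoter windows of that length, so a single match of either is common. No match overlapped another, and a match is a match of letters only.

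Il13, which drives mucus and smooth muscle responses, was at 125 and 132 CPM in medLN and 26.5 and 116 CPM in MLN in the IL-4eGFP+ sums and at 0 CPM in all 4 sums in the IL-4eGFP- sums. Its 4226 UMIs came from 196 IL-4eGFP+ cells, 0.948% to 3.48% of the cells of a sum, with 13.8 to 28.2 UMIs in a positive cell on average. None of the 8932 IL-4eGFP- cells had one, which allows a share of up to 0.0336% for cells with a UMI, by counting error, and sets no limit on cells that express the gene below detection. Against a floor of 3 counts over the IL-4eGFP- sums, on the same scaled library sizes, Il13 was at least 1013-fold higher. The Il13 UMIs thus came from few cells with many each, and the MLN sum of mouse 1 was the lowest of the 4. Il5, the eosinophil growth factor, was at 9.33 and 10.1 CPM in medLN and 17.7 and 5.48 CPM in MLN against 0 CPM in all 4 sums, at least 105-fold higher. Its 438 UMIs lay in 63 cells, and in the MLN of mouse 1 a total of 175 UMIs came from 5 cells. Il9, another type 2 cytokine gene, had no UMI in either gate, and Il3, Il24, Csf2 and Ptgdr2 were too low to be tested.

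Of the 20 genes of a Th2 effector list 15 were tested, 12 of which were higher and 2 lower in IL-4eGFP+ cells, with a median log2 fold change of 3.30 against -0.01 over all genes. Il4, on whose reporter the cells were sorted, is among the 12 and in the median, and its call follows from the sort. Gata3, the factor that sets the Th2 program, was at 163 and 145 CPM in medLN and 151 and 175 CPM in MLN in IL-4eGFP+ sums and at 42.5 and 45.4 CPM in medLN and 33.3 and 35.1 CPM in MLN in IL-4eGFP- sums (log2 fold change 2.02 ± 0.09 (SE), adjusted p = 2.37e-08). A Gata3 UMI was present in 32% to 38.1% of IL-4eGFP+ and 9.24% to 13.1% of IL-4eGFP- cells. Il1rl1, which encodes the IL-33 receptor ST2, was at 16.3 and 19.7 CPM in medLN and 13.9 and 22.9 CPM in MLN against 2.76 and 2.75 CPM in medLN and 1.07 and 0.688 CPM in MLN (log2 fold change 3.30 ± 0.25 (SE), adjusted p = 1.24e-06). Both genes were higher in every IL-4eGFP+ sum than in any IL-4eGFP- sum. Il4ra, the receptor chain for IL-4 and IL-13, went the other way at 29.6 and 30.4 CPM in medLN and 31 and 34.6 CPM in MLN against 194 and 188 CPM in medLN and 163 and 187 CPM in MLN (log2 fold change -2.54 ± 0.06 (SE), adjusted p = 7.63e-10). It was detected in 11.3% to 14.1% of IL-4eGFP+ and 36.5% to 42.2% of IL-4eGFP- cells. Stat6, which carries the signal of that receptor, was also lower (47.2 ± 3.22 CPM against 62.9 ± 5.19 CPM (mean ± SD, n = 4 sums each); log2 fold change -0.41), and the chemokine receptor Ccr8 did not pass the test (6.62 ± 1.78 against 7.69 ± 5.9 CPM).

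Other members of the Th2 list with large differences were Cysltr1, a receptor for cysteinyl leukotrienes, at 33.3 to 47.8 CPM in IL-4eGFP+ and 0.55 to 1.71 CPM in IL-4eGFP- sums (log2 fold change 5.01). Areg, the repair factor amphiregulin, was at 5.45 to 55.2 CPM against 0.263 to 1.7 CPM (4.55), and its 877 UMIs in IL-4eGFP+ cells came from 100 cells. Of these UMIs 588 lay in the medLN sum of mouse 2, and without that pair the log2 fold change of Areg was 3.94. Il17rb, a chain of the IL-25 receptor, was at 8.24 to 16.3 CPM against 0.138 to 0.915 CPM (4.42). All 3 genes stayed below 2 CPM in every IL-4eGFP- sum. Pparg, a nuclear receptor of Th2 cells in tissue, had 451 UMIs in IL-4eGFP+ and 3 in IL-4eGFP- cells (ratio 108, 95% counting interval 36.8 to 526). The homing receptor Ccr4 (2.56) and the transcription factor Bhlhe40 (2.47) were higher too.

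**Figure D2:**
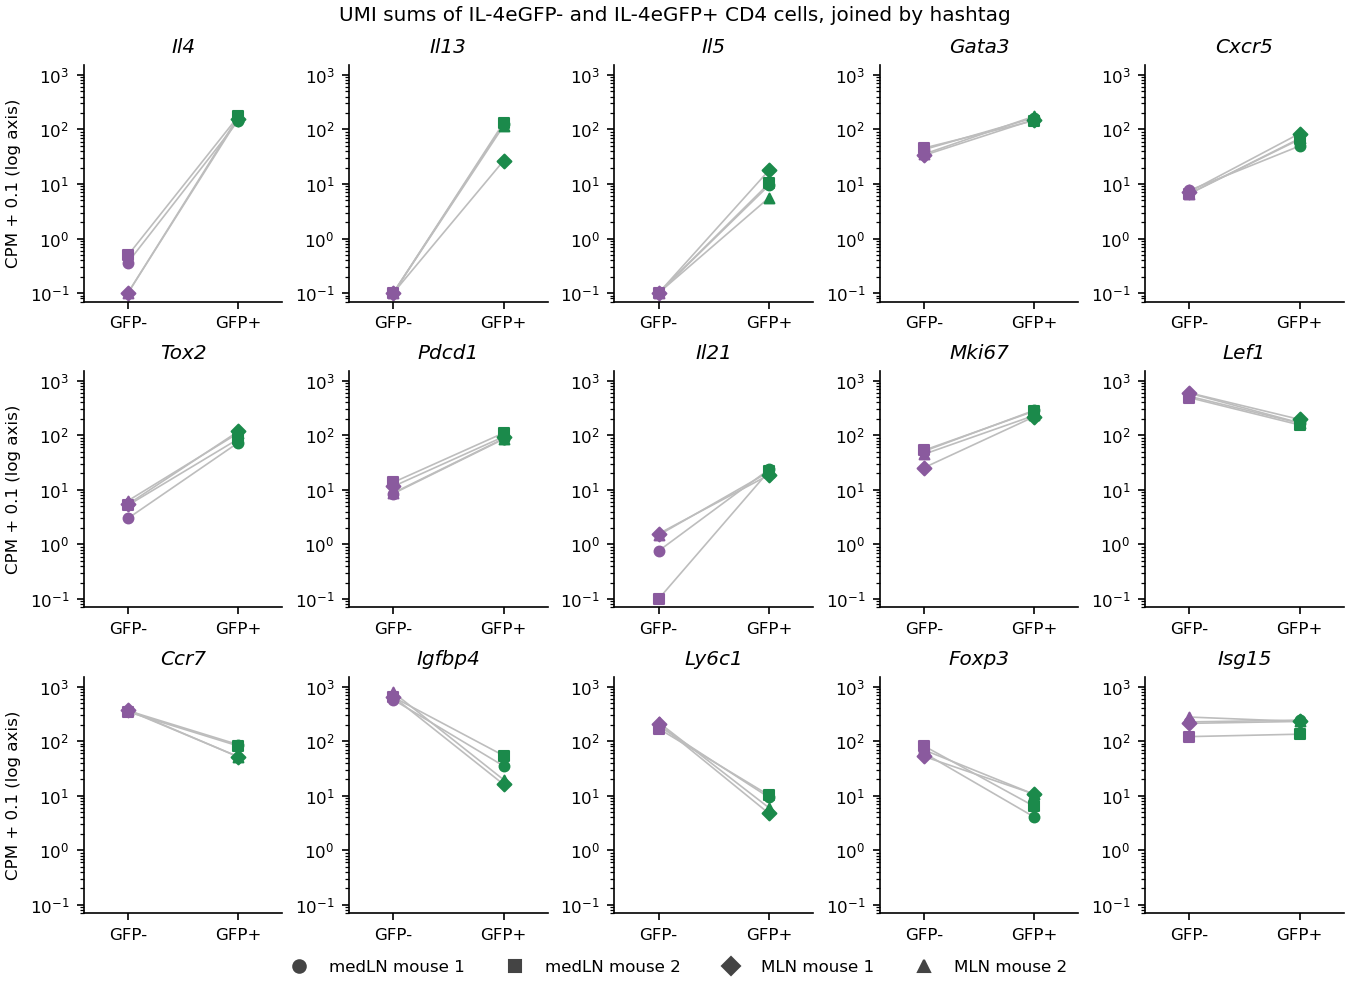
CPM + 0.1 on a log axis of 15 genes named in the text in the 8 sums, each line joining the IL-4eGFP- and the IL-4eGFP+ sum of 1 hashtag (1 node of 1 mouse). Gata3, Cxcr5, Tox2, Pdcd1, Il21 and Mki67 were higher and Lef1, Ccr7, Igfbp4, Ly6c1 and Foxp3 lower in IL-4eGFP+ cells in all 4 pairs, while the lines of Isg15 cross.

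Genes beside the cytokine cluster were read next, over the protein-coding genes within 500 kb of Il4 (chr11:53602982-53618669, GRCm38), a window set with earlier values known. Kif3a, a kinesin subunit whose gene ends 1.01 kb from that of Il4 and is read toward it, was at 14 and 20.6 CPM in medLN and 19 and 21.2 CPM in MLN in IL-4eGFP+ and at 3.29 and 3.01 CPM in medLN and 2.8 and 2.75 CPM in MLN in IL-4eGFP- sums (log2 fold change 2.64 ± 0.14 (SE), adjusted p = 1.07e-07). Sept8, the septin gene on the far side of Kif3a, was at 7.58 ± 1.39 against 1.09 ± 0.331 CPM (log2 fold change 2.77). Both neighbours were thus several-fold higher in the reporter gate. Rad50, the DNA repair gene that lies between Il13 and Il5 and holds their locus control region, was higher by a log2 fold change of 0.38 only. On the other side of Il5 the sign turned, with Irf1, an interferon-induced transcription factor, at -1.18, Gm12216 at -1.02, the carnitine transporter Slc22a5 at -1.16 and Pdlim4 at -2.73. Aff4 and Uqcrq did not pass the test, and Hspa4 (0.28) and Zcchc10 (0.73) were slightly higher.

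All 20 genes of a Tfh list were tested and 18 were higher in IL-4eGFP+ cells, with a median log2 fold change of 1.48. The other two, Il6ra (-0.88) and Il6st (-0.33), encode the chains of the IL-6 receptor and were lower. Cxcr5 was at 49.6 and 65.6 CPM in medLN and 84.1 and 68.1 CPM in MLN in IL-4eGFP+ and at 7.5 and 6.54 CPM in medLN and 7.06 and 6.47 CPM in MLN in IL-4eGFP- sums (log2 fold change 3.26 ± 0.11 (SE), adjusted p = 4.87e-09). Bcl6 was at 45.9 and 56.2 CPM in medLN and 63.6 and 51 CPM in MLN against 23.9 and 19.9 CPM in medLN and 21.8 and 16.9 CPM in MLN (log2 fold change 1.39 ± 0.10 (SE), adjusted p = 7.97e-07). Both Tfh-defining genes were higher in all 4 pairs and their ranges did not overlap, with the larger difference for the receptor. Pdcd1, the inhibitory receptor PD-1, was at 85.1 and 110.3 CPM in medLN and 94.1 and 86.8 CPM in MLN against 8.42 and 13.6 CPM in medLN and 11.5 and 8.67 CPM in MLN (log2 fold change 3.16 ± 0.07 (SE), adjusted p = 7.63e-10). Il21, the cytokine with which Tfh cells help B cells, was at 23.6 and 22 CPM in medLN and 18.7 and 21.2 CPM in MLN against 0.658 and 0 CPM in medLN and 1.46 and 1.38 CPM in MLN (log2 fold change 4.60 ± 0.30 (SE), adjusted p = 3.97e-07), from 893 UMIs in 510 IL-4eGFP+ cells and 26 in 13 IL-4eGFP- cells.

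Tox2, a nuclear factor that acts with BCL6, had the largest fold among Tfh genes above 50 CPM, at 73.3 and 85.7 CPM in medLN and 118 and 109.6 CPM in MLN against 2.89 and 5.1 CPM in medLN and 5.33 and 6.19 CPM in MLN (log2 fold change 4.31 ± 0.09 (SE), adjusted p = 5.54e-10). Maf, which drives both Il4 and Il21, was at 206 and 209 CPM in medLN and 205 and 209 CPM in MLN against 24.1 and 31 CPM in medLN and 25.7 and 20.6 CPM in MLN and was detected in 46.9% to 50.2% of IL-4eGFP+ and 3.73% to 6.26% of IL-4eGFP- cells. Angptl2, a secreted angiopoietin-like protein, was at 10.3 to 22.7 CPM against 0.526 to 2.75 CPM (log2 fold change 3.47). Ascl2, a factor that raises CXCR5, had 293 UMIs against 3 (ratio 70.2, 95% counting interval 23.8 to 343). In single cells, Cxcr5 and Pdcd1 UMIs occurred together in 7.89% to 12.4% of IL-4eGFP+ and 0.0455% to 0.36% of IL-4eGFP- cells. Cxcr5 and Bcl6 did so in 5.13% to 9.43% and 0.0884% to 0.227%. Of the IL-4eGFP+ cells with an Il4 UMI 22% to 33.9% also had one of Cxcr5, 39.4% to 49.4% one of Gata3 and 8.01% to 10.2% one of Il21. Il4 UMIs were thus seen both with and without a UMI of these genes, at a depth at which a missing UMI does not show that a transcript was absent.

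The naive and quiescent list was the mirror image, all 19 genes being lower in IL-4eGFP+ cells with a median log2 fold change of -1.54. Ccr7 was at 86.3 and 81.6 CPM in medLN and 51.5 and 51.9 CPM in MLN in IL-4eGFP+ and at 362 and 345 CPM in medLN and 378 and 367 CPM in MLN in IL-4eGFP- sums (log2 fold change -2.45 ± 0.13 (SE), adjusted p = 8.85e-08). In the IL-4eGFP+ gate both medLN sums were above both MLN sums. Lef1, a transcription factor of naive T cells, was at 155 to 195 CPM against 490.0 to 601 CPM (log2 fold change -1.68 ± 0.04 (SE), adjusted p = 7.63e-10) and still had a UMI in 46% to 51% of IL-4eGFP+ cells. UMIs of Ccr7 and Lef1 occurred together in 9.14% to 13.3% of IL-4eGFP+ and 48.2% to 51% of IL-4eGFP- cells. Tcf7, which encodes the LEF1 relative TCF-1, differed little (log2 fold change -0.15) and its values overlapped between the gates.

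The largest decreases in the naive list were those of Dapl1, Ly6c1 and Igfbp4. Dapl1 was at 2.98 and 4.32 CPM in medLN and 1.31 and 1.44 CPM in MLN against 87.5 and 80.6 CPM in medLN and 94 and 107 CPM in MLN (log2 fold change -5.19 ± 0.21 (SE), adjusted p = 1.37e-08). Ly6c1, a surface protein of the Ly6 family, was at 9.24 and 10.1 CPM in medLN and 4.64 and 5.93 CPM in MLN against 191 and 171 CPM in medLN and 209.9 and 222 CPM in MLN (log2 fold change -4.72 ± 0.16 (SE), adjusted p = 6.40e-09). Igfbp4, which encodes a binding protein for insulin-like growth factors, was at 35.1 and 54.4 CPM in medLN and 16 and 19.6 CPM in MLN against 578 and 644 CPM in medLN and 654 and 786 CPM in MLN (log2 fold change -4.46 ± 0.25 (SE), adjusted p = 1.36e-07). Each of the 3 was present in few IL-4eGFP+ cells, 0.447% to 1.39%, 1.25% to 2.35% and 2.5% to 5.89%, against 16.3% to 18.6%, 26.7% to 29.6% and 48.3% to 54.4% of IL-4eGFP- cells. Bach2, a repressor that holds T cells back from effector fates, was at 17 and 17.2 CPM in medLN and 12 and 17.4 CPM in MLN against 112 and 112 CPM in medLN and 114 and 124 CPM in MLN (log2 fold change -2.86 ± 0.08 (SE), adjusted p = 1.98e-09). Il7r, the receptor for the survival cytokine IL-7, was at 62.3 to 106 CPM against 208 to 242 CPM (log2 fold change -1.54), and Ramp1, a co-receptor for the neuropeptide CGRP, at 6.92 to 41.3 CPM against 94.6 to 109 CPM (-2.24).

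Regulatory T cell genes split. Of 20 tested, 10 were higher and 8 lower in IL-4eGFP+ cells, with a median log2 fold change of 0.29. Foxp3 was at 3.97 and 6.29 CPM in medLN and 10.6 and 10.5 CPM in MLN in IL-4eGFP+ and at 60.9 and 81.9 CPM in medLN and 52.6 and 69.2 CPM in MLN in IL-4eGFP- sums (log2 fold change -3.08 ± 0.20 (SE), adjusted p = 3.30e-07). Its UMIs were found in 1.02% to 3.23% of IL-4eGFP+ and 8.44% to 12.6% of IL-4eGFP- cells, so the IL-4eGFP- gate held most of the Foxp3-positive cells. Lrrc32, the TGF-β-presenting protein GARP, followed it (log2 fold change -2.83). Tigit, an inhibitory receptor shared by Tfh and regulatory cells, went up at 136 and 144 CPM in medLN and 176 and 191 CPM in MLN against 27.1 and 34.3 CPM in medLN and 9.99 and 14.7 CPM in MLN (log2 fold change 2.92 ± 0.26 (SE), adjusted p = 4.17e-06), and Il10 was at 8.24 and 16.9 CPM in medLN and 7.57 and 7.01 CPM in MLN against 0.79 and 0.262 CPM in medLN and 1.07 and 2.34 CPM in MLN (log2 fold change 3.12 ± 0.40 (SE), adjusted p = 6.98e-05) from 416 UMIs in 88 IL-4eGFP+ cells. Ikzf2, the factor Helios, was lower in the sums (log2 fold change -0.54, with overlapping values) but higher at 0.45 when cells with a Foxp3 UMI were left out. Of the 168 IL-4eGFP+ cells with a Foxp3 UMI 42.6% to 61.9% had one of Gata3 and 13% to 33.3% one of Il4, against 17.9% to 28.3% and 0% to 0.717% of the 941 in the other gate. The Il4 difference follows from the sort, and over all IL-4eGFP+ cells the share with Il4 was higher, 36.1% to 42.6%. Shares of Gata3 over all cells of each gate are given above.

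Genes of the other helper lineages were looked at next. Of 13 Th1 genes tested 5 were higher and 5 lower in IL-4eGFP+ cells, so that 76.9% were called against 63.7% of all genes tested. Tbx21, the Th1 factor T-bet, was at 3.97 and 3.01 CPM in medLN and 2.22 and 1.71 CPM in MLN against 1.58 and 1.57 CPM in medLN and 1.73 and 0.55 CPM in MLN (log2 fold change 1.00 ± 0.26 (SE), adjusted p = 0.00737) and had a UMI in 0.794% to 1.15% of IL-4eGFP+ and 0.182% to 0.442% of IL-4eGFP- cells, shares close to those of the B cell gene Cd79a. Ifng had 16 UMIs in IL-4eGFP+ and 5 in IL-4eGFP- cells and was not tested, and Cxcr3, a chemokine receptor of Th1 cells, did not pass (13.6 ± 1.93 against 11.6 ± 3.03 CPM). Eomes, a T-box factor of memory and cytotoxic cells, was by contrast at 2.18 and 2.54 CPM in medLN and 0.707 and 0.809 CPM in MLN in IL-4eGFP+ and at 46.6 and 45.8 CPM in medLN and 56.3 and 55.9 CPM in MLN in IL-4eGFP- sums (log2 fold change -5.02 ± 0.21 (SE), adjusted p = 2.10e-08), with a UMI in 0.298% to 0.435% of IL-4eGFP+ and 10.9% to 12.3% of IL-4eGFP- cells. Every IL-4eGFP- sum thus held many more Eomes-positive cells than any IL-4eGFP+ sum. Il12rb1, a chain shared by the IL-12 and IL-23 receptors, was higher in IL-4eGFP+ cells (2.28). In the Th17 list 3 of 7 tested genes were higher and 3 lower, with a median log2 fold change of -0.56. The members with negative values were Ccr6 (-3.45), Aqp3 (-0.88), Tmem176b (-0.57) and Tmem176a (-0.56), of which 1 did not pass the test. Il17a had no UMI. Il1r1, the IL-1 receptor, was at 7.65 and 13.5 CPM in medLN and 13.1 and 20.1 CPM in MLN against 0.526 and 0.523 CPM in medLN and 0.133 and 0.688 CPM in MLN (log2 fold change 4.82 ± 0.24 (SE), adjusted p = 6.57e-08), and Ahr, the aryl hydrocarbon receptor, at 16.8 to 29 CPM against 3.6 to 6.15 CPM (log2 fold change 2.24).

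Innate-like T cells were looked for because the reporter also marks NKT cells. Of 9 tested genes of the list 6 were higher and 1 lower. The lower one was Klrd1 (log2 fold change -2.74), and Fcer1g (-0.46) and Tyrobp (-0.41) did not pass the test. Zbtb16, which encodes PLZF, the factor that defines NKT cells, had 94 UMIs in 65 IL-4eGFP+ cells and 2 UMIs in 2 IL-4eGFP- cells (ratio 33.8, 95% counting interval 9.1 to 283). That is 0.527% to 0.998% of IL-4eGFP+ cells. Gzma, a granule protease, was at 42.3 and 47.9 CPM in medLN and 127 and 494 CPM in MLN in IL-4eGFP+ and at 8.55 and 23.4 CPM in medLN and 22.8 and 142 CPM in MLN in IL-4eGFP- sums (log2 fold change 1.87 ± 0.17 (SE), adjusted p = 4.10e-06). The MLN sums of mouse 2 were the highest in both gates, and the gates overlapped. Gzmb was at 69.6 and 71.8 CPM in medLN and 51.6 and 140.0 CPM in MLN against 19.6 and 12.8 CPM in medLN and 5.99 and 31.5 CPM in MLN (log2 fold change 2.29 ± 0.13 (SE), adjusted p = 1.87e-07), Nkg7, a granule membrane protein, at 20.1 to 71.4 CPM against 9.32 to 15.6 CPM (1.62), and Cd160, an inhibitory receptor, at 13.3 to 44.6 CPM against 3.29 to 7.16 CPM (2.47).

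Proliferation genes were higher in IL-4eGFP+ cells without exception in both lists, 20 of 20 S phase genes (median log2 fold change 1.56) and 20 of 20 genes of G2 and M phase (median 2.60). Mki67 was at 287 and 278 CPM in medLN and 219.5 and 231 CPM in MLN in IL-4eGFP+ and at 50.8 and 53 CPM in medLN and 25.3 and 44.9 CPM in MLN in IL-4eGFP- sums (log2 fold change 2.56 ± 0.10 (SE), adjusted p = 1.08e-08). Cdk1, the kinase of mitotic entry, had a log2 fold change of 2.80, its partner cyclin Ccnb1 2.81 and the ubiquitin-conjugating enzyme Ube2c 2.85. In S phase Rrm2, a subunit of ribonucleotide reductase, led with 2.78, followed by Cdc6 (2.64), which loads the replicative helicase, and Uhrf1 (2.56), which maintains DNA methylation. A UMI of Mki67 or Top2a was found in 18% to 21.3% of IL-4eGFP+ and 3.0% to 4.59% of IL-4eGFP- cells. The share of such cells differed several-fold, while a cell positive for Mki67 held on average 8.94 UMIs of it in the IL-4eGFP+ and 7.39 in the IL-4eGFP- gate. Over all genes, cells with a UMI of Mki67 or Top2a had medians of 6953 to 8754.5 UMIs in IL-4eGFP+ sums. In IL-4eGFP- sums these medians were 5547.5 to 6318. When cells with a UMI of either gene were left out, 8 of 19 S phase genes were higher and 4 lower, and 11 of 13 tested genes of G2 and M phase were higher and 0 lower. The medians were then 0.25 and 1.58, and 56.4% of all genes tested passed.

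Activation receptors were mostly higher, 13 of 20 against 5 lower, with a median log2 fold change of 0.68. Besides Pdcd1 and Tigit, Lag3, an inhibitory receptor for MHC class II, was at 114 and 86.6 CPM in medLN and 55.4 and 102 CPM in MLN against 26.3 and 22.6 CPM in medLN and 19.4 and 18.7 CPM in MLN (log2 fold change 2.02 ± 0.11 (SE), adjusted p = 1.25e-07). The adhesion receptor Cd44 (1.52) and the costimulator Icos (1.69) were higher, and the early activation marker Cd69 (-0.30) was lower. Of 19 tested transcription factors induced by the T cell receptor 10 were higher and 5 lower, so that 78.9% were called against 63.7% of all genes tested. Irf4 was at 93.9 and 71 CPM in medLN and 48.2 and 45.3 CPM in MLN in IL-4eGFP+ and at 27.1 and 24.6 CPM in medLN and 18.8 and 9.22 CPM in MLN in IL-4eGFP- sums (log2 fold change 1.70 ± 0.11 (SE), adjusted p = 3.83e-07), and Nfatc1 had a log2 fold change of 1.04. Myc, the driver of cell growth, went the other way at 60.4 and 60.2 CPM in medLN and 51.6 and 68.2 CPM in MLN against 201 and 197 CPM in medLN and 189.8 and 212 CPM in MLN (log2 fold change -1.74 ± 0.05 (SE), adjusted p = 1.41e-09). Of 19 lineage transcription factors tested 12 were higher and 6 lower, with Id2, which marks effector cells, at 2.50 and its relative Id3 at 0.70.

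Of 21 tested homing receptors 11 were higher and 8 lower in IL-4eGFP+ cells. Cxcr6, which holds T cells in peripheral tissue, was at 77.2 and 72.2 CPM in medLN and 95.5 and 106 CPM in MLN against 3.55 and 6.67 CPM in medLN and 4.39 and 5.78 CPM in MLN (log2 fold change 4.09 ± 0.13 (SE), adjusted p = 2.78e-09). Ccr2, a receptor for inflammatory monocyte chemokines, was at 50.7 and 47.3 CPM in medLN and 39.1 and 40.2 CPM in MLN against 4.21 and 9.28 CPM in medLN and 2.53 and 4.27 CPM in MLN (log2 fold change 3.13 ± 0.18 (SE), adjusted p = 1.54e-07). Both were low in all 4 IL-4eGFP- sums. Itgb1, the β1 integrin chain, was at 248 ± 180.2 CPM against 53.2 ± 25.1 CPM (mean ± SD, n = 4 sums each), while the node egress receptor S1pr1 (-1.74) and Ccr6 (-3.45) were lower. Ccr9, the receptor that leads T cells to the small intestine, was at 10.3 and 13.5 CPM in medLN and 54.8 and 96.4 CPM in MLN in IL-4eGFP+ and 4.87 and 5.88 CPM in medLN and 15 and 13.6 CPM in MLN in IL-4eGFP- sums. It was higher in the IL-4eGFP+ sum of all 4 pairs (log2 fold change 2.04 ± 0.21 (SE), adjusted p = 1.44e-05), while the gates overlapped across the nodes.

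Of 23 tested S100, annexin and cytoskeletal genes 19 were higher and 2 lower, with a median log2 fold change of 0.50. Anxa2, an annexin of the cell membrane, was at 248 and 226 CPM in medLN and 146 and 177 CPM in MLN in IL-4eGFP+ and at 20.4 and 25.2 CPM in medLN and 10.9 and 6.06 CPM in MLN in IL-4eGFP- sums (log2 fold change 3.70 ± 0.17 (SE), adjusted p = 3.12e-08), and S100a6, a calcium-binding protein, at 415 and 396 CPM in medLN and 287 and 360.5 CPM in MLN against 76.1 and 68.5 CPM in medLN and 26 and 16.8 CPM in MLN (log2 fold change 3.06 ± 0.24 (SE), adjusted p = 1.49e-06). Anxa1, which dampens inflammation, had a log2 fold change of 3.65, Ahnak of 2.40, S100a11 of 2.35 and the galectin gene Lgals1 of 2.31. Emp3 (-0.92) and Capg (-0.32) were the 2 lower members. Plac8, a small cysteine-rich protein, was at 111 and 89.2 CPM in medLN and 191 and 309 CPM in MLN against 15 and 6.41 CPM in medLN and 4.53 and 8.81 CPM in MLN (log2 fold change 4.24 ± 0.29 (SE), adjusted p = 5.27e-07).

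Glycolysis genes were higher in 15 of 18 cases and lower in 2, with a median log2 fold change of 0.70. Tpi1, triosephosphate isomerase, was at 312 and 303 CPM in medLN and 296 and 419 CPM in MLN against 88 and 93 CPM in medLN and 83.8 and 91.7 CPM in MLN (log2 fold change 1.89 ± 0.07 (SE), adjusted p = 7.54e-09), and Slc16a3, a lactate exporter, had a log2 fold change of 1.49. Pdk1, a pyruvate dehydrogenase kinase, was lower at 21.1 and 20.5 CPM in medLN and 27.5 and 23.3 CPM in MLN against 85 and 74.9 CPM in medLN and 96.1 and 97 CPM in MLN (log2 fold change -1.94 ± 0.06 (SE), adjusted p = 2.56e-09), as was Eno1 (-0.41).

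Cytokine receptor and signaling genes were mostly lower, 16 of 23 against 5 higher, with a median log2 fold change of -0.31. Socs1 and Socs3, feedback inhibitors of cytokine signaling, were at 84.6 to 131 CPM against 249 to 386 CPM (-1.61) and at 26.3 to 71.8 CPM against 115 to 175 CPM (-1.31). Il21r (-1.27) and Il2ra (-0.64) were lower, and Jak2 (1.35) was the largest increase. Of 21 interferon-stimulated genes tested 2 were higher and 16 lower, with a median of -0.60. Usp18, which limits interferon signaling, was at 20.9 and 8.45 CPM in medLN and 17.1 and 15.3 CPM in MLN against 66.1 and 40.4 CPM in medLN and 56.5 and 78 CPM in MLN (log2 fold change -1.98 ± 0.11 (SE), adjusted p = 1.32e-07), and the immunity-related GTPase Iigp1 (-2.51) and Oasl2 (-1.85) were lower as well. Isg15 did not pass the test, at 243 and 134 CPM in medLN and 230.1 and 229.7 CPM in MLN against 226 and 121 CPM in medLN and 212 and 277 CPM in MLN (adjusted p = 0.789), and Ly6a, the surface protein Sca-1, was higher (1.18). For Isg15 the medLN sum of mouse 2 was the lowest in both gates.

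Among 8 GIMAP genes, GTPases of lymphocyte survival, 6 were lower and 1 higher, led by Gimap3 (-0.75), Gimap8 (-0.74) and Gimap4 (-0.61). The BCL2 family exchanged members, with 6 of 12 tested genes higher and 5 lower. Bcl2 itself, the survival factor of resting lymphocytes, was at 36.8 and 42.2 CPM in medLN and 32.9 and 34.7 CPM in MLN in IL-4eGFP+ and at 258 and 269.6 CPM in medLN and 257 and 308 CPM in MLN in IL-4eGFP- sums (log2 fold change -2.90 ± 0.07 (SE), adjusted p = 8.14e-10). Bcl2a1d was at 128 and 141 CPM in medLN and 128 and 112 CPM in MLN against 17.6 and 18.6 CPM in medLN and 15.2 and 14.3 CPM in MLN (log2 fold change 2.95 ± 0.05 (SE), adjusted p = 3.87e-10), and Bcl2a1b at 257 to 298 CPM against 46.5 to 70.4 CPM (2.29). The last pair are near-identical copies of one survival gene, so that the split of reads between them is uncertain, while both moved upward in every pair.

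**Figure D3:**
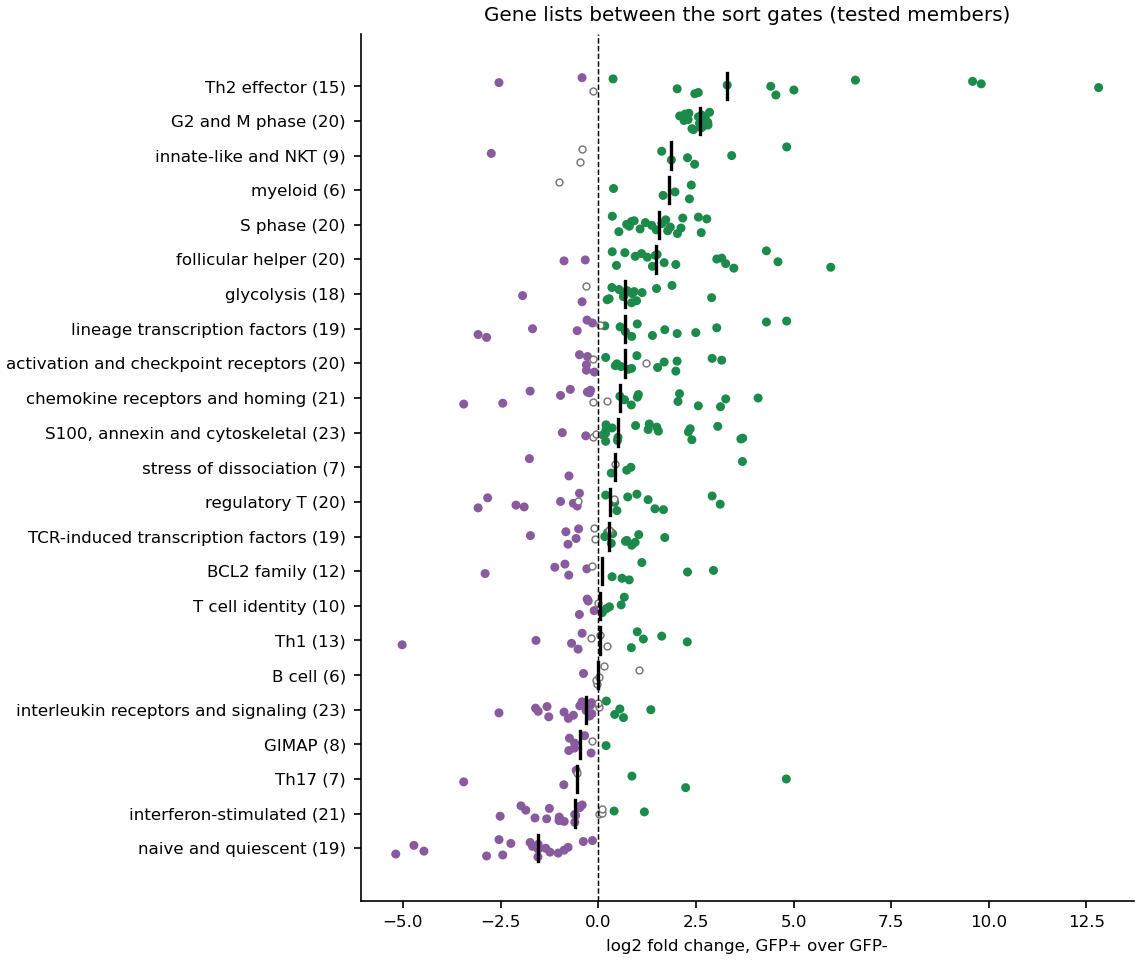
Log2 fold change of IL-4eGFP+ over IL-4eGFP- for the tested members of each gene list drawn, each point 1 gene, filled if called, with the list's median as a bar and the median of all genes as a dashed line. Lists with few or no tested members (MHC class II, CD8 T, stromal and epithelial, basophil and eosinophil, and erythroid) are not drawn. All 19 naive genes lie below 0 and all 20 genes of each cell cycle list above it, while the regulatory T, Th1 and BCL2 lists reach far on both sides.

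The sort was checked against other cell types. Of 10 T cell identity genes 5 were higher and 4 lower, with a median log2 fold change of 0.04. Zap70 (0.67) and Cd5 (0.59) were the largest increases and Cd247, the CD3ζ chain, the largest decrease (-0.48). Cd8a had a UMI in 0.0497% to 0.25% of IL-4eGFP+ and 0.0884% to 0.18% of IL-4eGFP- cells and was not tested, and Cd8b1 was lower (log2 fold change -1.39). Cd8a or Cd8b1 had a UMI in 2.83% to 3.68% of IL-4eGFP+ and 5.36% to 7.61% of IL-4eGFP- cells. Of 6 tested B cell genes none was higher and Ighm was lower (-0.40); the list summed to 179 to 333 CPM in IL-4eGFP+ and 216 to 367 CPM in IL-4eGFP- sums, and 1 of 4 tested MHC class II genes, H2-Eb1 (-0.29), was lower. With equal numbers of cells thinned to 1500 UMIs, where 47.5% of all genes tested passed, 4 of 5 tested B cell genes were instead higher and 1 lower (median 0.96) and 3 of 4 MHC class II genes were higher.

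Myeloid genes moved with the gate. Of 10, 6 were tested and 5 were higher in IL-4eGFP+ cells, and the list summed to 163 to 237 CPM in IL-4eGFP+ and 111 to 132 CPM in IL-4eGFP- sums. Most of the IL-4eGFP+ total came from 1 member, Cst3, at a mean of 139 CPM (log2 fold change 0.39). Lyz2, lysozyme of macrophages and neutrophils, was at 46.4 and 23.7 CPM in medLN and 55.6 and 8.63 CPM in MLN against 18.8 and 2.88 CPM in medLN and 2.66 and 2.06 CPM in MLN (log2 fold change 2.38 ± 0.35 (SE), adjusted p = 1.58e-04), with overlapping values. A UMI of C1qa, C1qb, C1qc or Lyz2 was found in 2.18% to 7.58% of IL-4eGFP+ and 0.311% to 1.06% of IL-4eGFP- cells. The part of these transcripts in the other differences was not tested. Basophils and eosinophils of 4get mice carry the reporter too, and their 10 genes summed to 1.6 to 4.76 CPM in IL-4eGFP+ and 0.262 to 0.533 CPM in IL-4eGFP- sums, with Fcer1a, Ms4a2 and Epx at 0. Erythroid genes summed to at most 1.17 CPM. Of 4 tested stromal and epithelial genes Krt18 was higher (2.29) and Epcam lower (-0.71). Of 7 tested genes of dissociation stress 4 were higher and 2 lower, with Ier3 at 3.69, the chaperone Hsp90aa1 at 0.84 and Jun at -1.76.

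Shares of cells gave the same order as the sums for most defining genes. For 17 of 20 defining genes the 4 shares of cells with a UMI did not overlap between the gates, and for 15 of 20 after every cell was thinned to 1500 UMIs, which left out 329 IL-4eGFP+ and 207 IL-4eGFP- cells below that depth. Il4 is among the 20, and its place follows from the sort. Shares were not counted in this way over all genes. In CPM of the sums, 56.6% of all genes tested did not overlap, so such a count says little by itself. Within the reporter gate Gata3 was detected in 32% to 38.1%, Cxcr5 in 16.1% to 25.4%, Foxp3 in 1.02% to 3.23% and Ccr7 in 13.5% to 23.2% of cells, so that the gate held cells with transcripts of several states. Ikzf2 was in more IL-4eGFP+ than IL-4eGFP- cells on average, 13.5% to 18.9% against 9.73% to 14%, although its summed level was lower, and a positive cell held 1.87 against 2.61 UMIs on average.

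**Figure D4:**
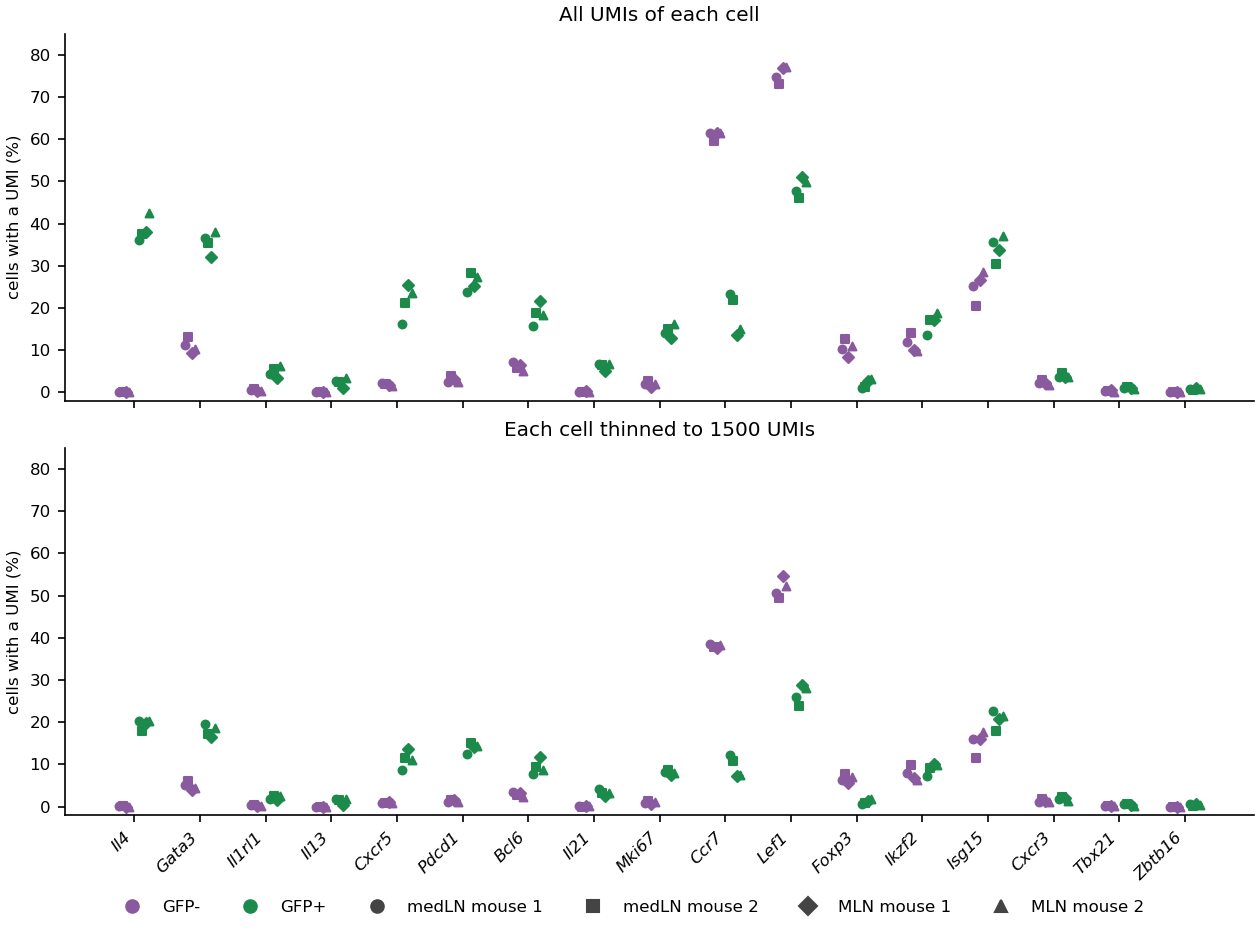
Percent of cells with at least 1 UMI of each gene in the 4 IL-4eGFP+ and 4 IL-4eGFP- sums, each point 1 sum, over all UMIs (top) and after each cell was thinned to 1500 UMIs (bottom). Il4, Gata3, Cxcr5 and Pdcd1 lie far higher in IL-4eGFP+ cells, Ccr7 and Lef1 far higher in IL-4eGFP- cells, and Foxp3 reaches at most 12.6%.

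The difference between gates was then compared between the nodes with an interaction term, written as the log2 fold change in medLN minus that in MLN. It rests on 2 mice that gave both nodes, and the model does not pair the nodes of a mouse. Of 11045 genes 86 passed (0.779%), 35 with a higher and 51 with a lower value in medLN. The naive list held 9 of them among 19 tested genes and the regulatory T list 9 among 20. Ramp1 fell by less in medLN, with log2 fold changes of -1.32 in medLN and -3.71 in MLN (difference 2.39 ± 0.13 (SE), adjusted p = 1.01e-05), as did Ccr7 at -2.08 and -2.85 (difference 0.77 ± 0.07 (SE), adjusted p = 2.99e-04). Igfbp4 was at -3.78 and -5.34, Ly6c1 at -4.22 and -5.34 and Socs3 at -0.91 and -1.73. Of these 5 genes, Ramp1, Igfbp4, Ly6c1 and Socs3 were among the largest positive terms above 50 CPM, and all 5 were lower in the reporter gate of both nodes and more so in MLN. In single cells Ccr7 was found in 13.5% to 23.2% of IL-4eGFP+ cells, the 2 highest shares in medLN, and in 13.3% to 20.8% of those that had an Il4 UMI.

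The largest negative terms above 50 CPM were those of Jchain, Plac8, Tigit, S100a6 and Ikzf2. Plac8 was higher in IL-4eGFP+ cells of both nodes, by 3.24 in medLN and 5.23 in MLN (difference -1.99 ± 0.26 (SE), adjusted p = 0.00364). Tigit was at 2.19 and 3.90 (difference -1.70 ± 0.15 (SE), adjusted p = 2.99e-04), and S100a6 at 2.49 and 3.91 (difference -1.42 ± 0.19 (SE), adjusted p = 0.00452). All 3 genes differed more between the gates of MLN. Regulatory genes followed the same sign, Foxp3 at -3.79 and -2.53 and Ikzf2 at -1.02 and -0.04 (difference -0.98 ± 0.10 (SE), adjusted p = 0.00132). Without cells that had a Foxp3 UMI the terms of S100a6 and Tigit no longer passed. Jchain, the joining chain of secreted antibody, was at 99.6 and 14.4 CPM in medLN and 261 and 40.1 CPM in MLN against 149 and 26 CPM in medLN and 5.19 and 11.3 CPM in MLN; its UMIs lay in 57 IL-4eGFP+ and 51 IL-4eGFP- cells, up to a mean of 172 UMIs per positive cell in the MLN of mouse 1, so its term (difference -4.72 ± 0.57 (SE), adjusted p = 0.00233) rests on a few cells. None of the Th2 genes passed this test, and neither did any gene of the cell cycle lists. Only 0.779% of all genes tested passed, so this does not show that these differences were equal in both nodes. Il13 and Il5 had no UMI in any IL-4eGFP- sum, which leaves little to compare.

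**Figure D5:**
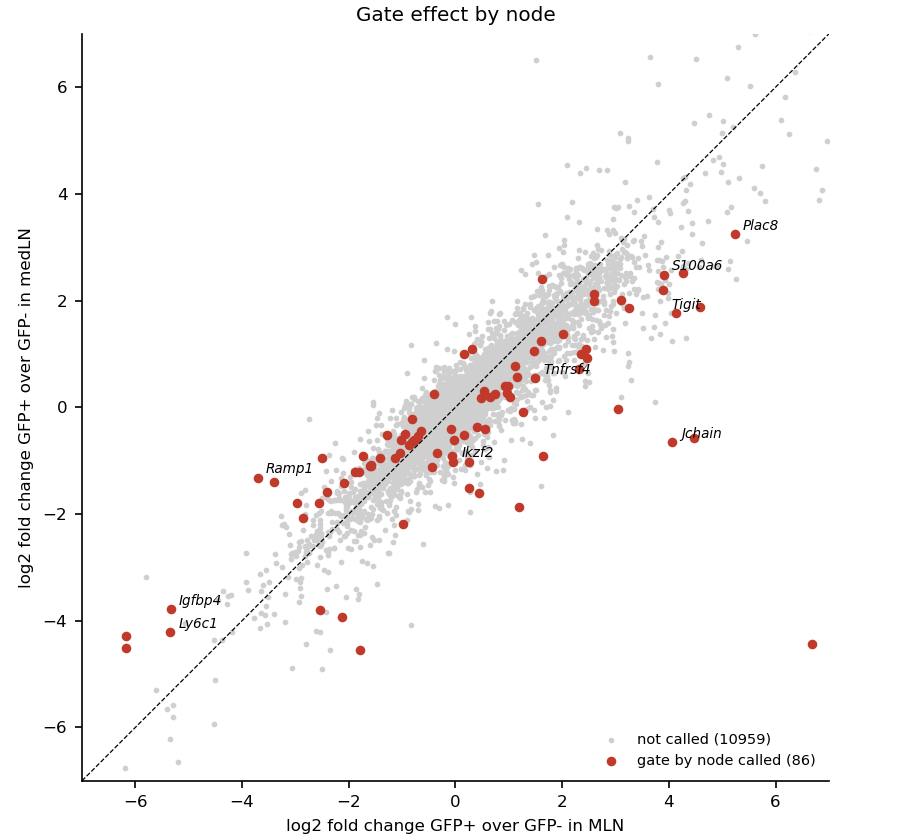
Log2 fold change of IL-4eGFP+ over IL-4eGFP- in MLN (horizontal axis) and in medLN (vertical axis) for the genes tested, with the 86 genes that passed the gate by node test in color and a diagonal of equal change. Ramp1 and Igfbp4 lie above the diagonal and Tigit, Plac8, S100a6 and Jchain below it. The 25 genes beyond 7 on an axis, of which 0 were called, are not shown.

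Since so many naive genes differed, the gates were also compared among cells with no UMI of Foxp3, Ccr7 or Lef1, a subset chosen after seeing the data, of which the IL-4eGFP+ sums held 858 to 927 and the IL-4eGFP- sums 196 to 247. The median UMIs of these cells were 2958 to 3498.5 in IL-4eGFP+ and 2387 to 2651 in IL-4eGFP- sums. Over all cells they were 3168 to 3645.5 and 3255 to 3385.5. A missing UMI does not show that a transcript was absent, so the subset can still hold naive cells. In this subset, which has fewer and other cells, 2489 of 9281 genes passed (26.8%). Of the Th2 list, with Il4 in it, 12 of 15 genes were higher and 2 lower (median log2 fold change 3.25). Gata3 was higher by 2.18, Il1rl1 by 3.25 and Lgals7 by 6.12. Of the 20 Tfh genes 15 were higher and 2 lower (median 1.21), with Cxcr5 at 2.27, Bcl6 at 1.47 and Tox2 at 2.65. Over all cells these were at 3.26, 1.39 and 4.31. Of 17 naive genes still tested 15 were lower, with Ly6c1 at -4.66 and Bach2 at -2.75, and Bcl2 (-3.00) and Il4ra (-2.60) were lower too. The direction turned for Cxcr3, which was lower in IL-4eGFP+ cells (-1.12), and for Jchain (-1.05), which did not pass the test. Irf4 (0.24), Lyz2 (0.62), Nkg7 (0.83), Cd247 (-0.24) and Cst3 (0.22) no longer passed, and Tbx21 was too low to be tested. Of the activation receptors 12 of 19 were then higher and 5 lower, and of the TCR-induced transcription factors 3 of 18 higher and 7 lower.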

How the data were processed

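Per the labels, CD4+ T cells were sorted from medLN and MLN of 2 infected 4get mice into a reporter-positive and a reporter-negative fraction, hashtagged by node and mouse, and run as 1 10x library per fraction. The authors deposited UMI counts per gene and barcode, made with Cell Ranger 6.1.2 on mm10 per their processing notes. Whether the aggregation of the libraries thinned reads is not given in the sources used here. From these counts, cells were filtered and assigned as described above, checked for the gate with Il4, and summed per hashtag and gate. TCR genes (268) and hashtag features were left out of library sizes and tests. Columns of per-sample values with no sample assigned numbered 0.

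Sums were fitted in edgeR 4.0.16 (limma 3.58.1, R 4.3.3) with filterByExpr, TMM factors (1.05 to 1.08 in IL-4eGFP+ and 0.908 to 0.958 in IL-4eGFP- sums), hashtag and gate as terms, and the quasi-likelihood test with p-values adjusted by Benjamini-Hochberg over every gene fitted. With 4 pairs a paired permutation test of 1 gene cannot go below 0.125. The difference between nodes was a gate by node term in the same model. Pairing comes from the labels, since a hashtag is the same node of the same mouse in both gates. Deviations of the paired sums from their gate means correlated at 0.226, 0.197, 0.188 and 0.115 over 11045 genes. Fits were tested on simulated data. Alternatives were DESeq2 1.42.0, other filters, hashtag limits, depths and subsets of cells, and each pair left out. Scrublet, run through scanpy 1.11.5, called 0 doublets among the assigned cells of each library, which does not show that doublets were absent. Leaving its doublets out thus changed nothing. The 10% of cells with the highest scores were left out as an alternative chosen after seeing the data.

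The members and the 28 gene lists were chosen with earlier results of these data known. Named genes were the 12 largest called changes in each direction with a mean of at least 50 CPM and the same sign in 4 pairs, the 5 largest gate by node terms in each direction, the 3 largest called members of each list with a mean of at least 5 CPM, and 20 defining genes. Results for 2 genes, which were left out of the lists, and for 1 subset of cells are not reported here. Other genes named were chosen after their values were seen. Intervals of 95% and floors of 3 counts cover counting error only. Promoter sequences and starts are RefSeq's (GRCm38.p6), where Il4, Il13 and Il5 all matched by symbol.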

Additional observations from a re-analysis of the deposited data

Results flagged for a closer look

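Of 182 groups of 4 sums checked, 16 held 1 sum whose gap to its nearest neighbour was large against the range of the group (Dixon's criterion at 95%), where chance gives about 1 in 20. In IL-4eGFP+ sums the MLN of mouse 1 stood apart for Il13 (26.5 CPM, low), Bach2 (12 CPM, low) and Aqp3, a water channel (3.63 CPM, low). The MLN of mouse 2 stood apart for Cd8b1 (6.29 CPM, low), Cst3 (157 CPM, high) and Tpi1 (419 CPM, high), and the medLN of mouse 2 for Il10 (16.9 CPM, high) and Isg15 (134 CPM, low). In IL-4eGFP- sums the medLN of mouse 1 stood apart for Aqp3 (13.8 CPM, high), Jchain (149 CPM, high) and Lyz2 (18.8 CPM, high), and the medLN of mouse 2 for the noncoding RNA Gm2682 (373 CPM). The MLN of mouse 1 did so for Nfatc1 (91.4 CPM, high) and Ube2c (18.0 CPM, low), and the MLN of mouse 2 for Gzma (142 CPM, high) and Tbx21 (0.550 CPM, low). No sum stood apart across the board, and the 16 values were spread over 7 of the 8 sums.

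For 16 of the named genes the gate difference itself differed between the nodes by the interaction test (log2 fold change in medLN minus that in MLN). Of the naive list, 6 genes were less reduced in medLN, namely Ramp1 (2.39), Dapl1 (1.66), Igfbp4 (1.55), Ly6c1 (1.12), Ccr7 (0.77) and Il7r (0.65). Eomes (1.90) and Socs3 (0.83) had the same sign. The other 8 were lower in medLN, namely Jchain (-4.72), Plac8 (-1.99), Tigit (-1.70), Nkg7 (-1.59), S100a6 (-1.42), Foxp3 (-1.26), Ikzf2 (-0.98) and Bcl2a1b (-0.61). In both nodes the sign of the gate difference itself was the same for Ramp1, Dapl1, Igfbp4, Ly6c1, Ccr7, Il7r, Eomes, Socs3, Plac8, Tigit, Nkg7, S100a6, Foxp3, Ikzf2 and Bcl2a1b, while Jchain turned from -0.65 in medLN to 4.07 in MLN. For Ikzf2, however, the gates hardly differed in MLN.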

How the results depend on the processing

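The named genes kept their direction and side of the threshold in most alternatives. Over them 1687 comparisons with an alternative did so, 28 lost and 10 gained the call, and 12 turned direction. For the gate by node terms 128 did so and 16 lost the call. Of those unchanged, 92 and 9 came from leaving out doublets, of which Scrublet called 0, so they could not differ. Many named genes were chosen as the largest called changes, and the call of Il4 follows from the sort. These counts thus do not describe genes in general. The count of 7035 genes was 4581 with equal numbers of cells thinned to 1500 UMIs and 2489 in cells with no UMI of Foxp3, Ccr7 or Lef1 (chosen after seeing the data). Both leave fewer counts, and the second also other cells. Leaving out 1 hashtag pair gave 6341 to 6525, DESeq2 5271 and no filter on low counts 7406. Of genes called in both fits, 141 of 4992 changed direction without cells that had a Mki67 or Top2a UMI. With thinned cells 39 of 4122 did so. The values were 12 of 2380 in cells with no Foxp3, Ccr7 or Lef1 UMI and 3 of 6809 in cells with no Foxp3 UMI. In every other alternative 0 genes changed direction in this way. Without the replicate block 6806 genes were called between gates and 27 for gate by node, against 86 with it. That count was 35 in DESeq2, 363 with no filter, 138 with stricter hashtag limits, 50 with thinned cells, 16 in cells with no Foxp3, Ccr7 or Lef1 UMI, and 90 to 179 with 1 pair left out (175 without the medLN and 179 without the MLN of mouse 1), and the cause was not tested. The gene lists with a positive median were 18, and 13 in those same cells.

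Isg15 ranged from -0.0252 to 0.114 with 1 pair left out (positive without the MLN of mouse 2 only), and was -0.0825 in MLN alone and -0.0615 without the highest doublet scores. Jchain ranged from -0.0853 (without the MLN of mouse 1) to 2.29 (without the medLN of mouse 1), and was -0.69 in medLN alone and -1.05 in cells with no Foxp3, Ccr7 or Lef1 UMI, where Cxcr3 (-1.12) changed sign as well. H2-Eb1 was at 0.34 with thinned cells and 0.0162 without cycling cells, and Ikzf2 at 0.45 without Foxp3-positive cells. The causes were not tested. Without the replicate block Gzma and H2-Eb1 no longer passed, nor did the gate by node terms of Ikzf2, Jchain, Plac8 and Socs3. Depth limits genes under a few CPM, among them Tbx21 and Ifng.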

Other observations

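Several genes outside the lists also differed strongly between the gates and were picked after their values were seen. Sostdc1, a secreted antagonist of BMP and WNT signals, was at 42.4 and 80.2 CPM in medLN and 52.2 and 36.8 CPM in MLN in IL-4eGFP+ sums, from 2207 UMIs in 402 cells, and had 1 UMI in the IL-4eGFP- gate (ratio 1587, 95% counting interval 285 to 62711). Hdc, the enzyme that makes histamine, was at 8.84 and 21.6 CPM in medLN and 9.69 and 9.62 CPM in MLN against 0.132 and 0.262 CPM in medLN and 0.40 and 0.138 CPM in MLN. The basophil, mast cell and eosinophil list summed to 1.6 to 4.76 CPM in IL-4eGFP+ and 0.262 to 0.533 CPM in IL-4eGFP- sums. Which cells held the Hdc UMIs was not tested. Il6 had 175 UMIs in 98 IL-4eGFP+ cells and none in IL-4eGFP- cells, at least 41.9-fold higher. The vitamin D receptor gene Vdr was at 11.9 to 17.2 CPM against 0 to 0.688 CPM, the leukotriene B4 receptor gene Ltb4r1 at 14.5 to 36.7 CPM against 0 to 0.79 CPM, and Nmur1, the receptor for neuromedin U, at 4.77 to 21.4 CPM with 2 UMIs in all IL-4eGFP- sums. Hc, which encodes complement C5, was at 7.15 to 11.3 CPM against 0 to 0.658 CPM.

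In the other direction G0s2, an inhibitor of lipid breakdown, was at 0.0899 to 0.404 CPM in IL-4eGFP+ and 16.7 to 19.8 CPM in IL-4eGFP- sums, and Prf1, perforin of cytotoxic cells, at 0 to 0.539 CPM against 14.3 to 17.3 CPM. A Prf1 UMI was found in 4.49% to 5.45% of IL-4eGFP- cells. Tmem108 was at 0.199 to 1.17 CPM against 30.6 to 38.7 CPM, and Dntt, the terminal transferase of developing lymphocytes, at 0 to 0.505 CPM against 3.53 to 4.87 CPM.

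Ribosomal protein genes of the cytosolic ribosome, a group added after the values were seen, had lower CPM in IL-4eGFP+ cells in 78 of 80 cases and higher CPM in 1. The median log2 fold change was -0.64, and 31.2% of all genes tested were called lower. They took 22.3% to 22.7% of the UMIs of IL-4eGFP+ sums and 30.5% to 32.5% of those of IL-4eGFP- sums. In cells with no UMI of Foxp3, Ccr7 or Lef1 the median was -0.49 and 76 were lower. Since CPM is a share of each sum, the part of this difference in the values of other genes was not tested. A lower share does not show fewer ribosomal UMIs per cell, since the mean UMIs per cell were higher in the IL-4eGFP+ gate. The same limit holds for small decreases of other genes and lists.

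Ighv1-47, a heavy chain gene of antibodies, had 2835 of its 2888 IL-4eGFP+ UMIs in the MLN sum of mouse 1, the sum in which Jchain was also highest.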
